A study of Mus musculus with 22 samples.

Results

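The genes described here are a set of 36 that carry out the unfolded protein response and the folding, quality control and disposal of proteins in the endoplasmic reticulum (ER). They were taken by name, as the array features whose annotated gene symbol was on the list. No limit on their values was set, but the list was chosen with earlier results of these data known. Of the 36 genes, 34 were measured, among 19505 named genes and 22206 features in all, and Pdia4 and Manf were not analysed here. Ddit3 was covered by 2 features and is represented by the one with the higher mean. By role the list holds 7 sensors and transcription factors, 15 chaperones and folding enzymes (13 measured), 8 genes of ER-associated degradation, 3 of the translocation channel and 3 targets of the factors ATF4 and CHOP.

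The samples were 22 livers of male mice without adiponectin, a hormone secreted by fat cells. All carried the same global knockout (strain B6;129-Adipoqtm1Chan/J, on a C57BL/6J background), were 3 to 8 months old, ate chow freely, and had lights on for 12 h and off for 12 h of each day. Livers were taken every 4 h at zeitgeber time (ZT, hours after lights on) 2, 6 and 10 in the light and 14, 18 and 22 in the dark, and each RNA went onto a Clariom S array. Each time had 4 arrays, except ZT6 and ZT18 with 3, so that 11 were from the light and 11 from the dark. Letters tell the arrays of a time apart, and each was taken as 1 mouse, so the tests rest on the spread among these livers. Time of day is the only factor that the labels give among these arrays, and the age of each single mouse is not given. No wild-type livers were analysed here, and no value below measures an effect of losing adiponectin.

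The ER is where secreted and membrane proteins fold, and hepatocytes, which secrete most plasma proteins, hold a great deal of it. When unfolded proteins build up, the membrane sensors IRE1 (gene Ern1), PERK (Eif2ak3) and ATF6 send signals that splice Xbp1 mRNA, slow translation while favouring Atf4, and release ATF6 as a transcription factor, and these factors raise chaperones, degradation machinery and, in the PERK arm, genes such as Ddit3 (CHOP). In liver these genes are known to follow feeding and the time of day. The array reads total transcript, so neither the splicing of Xbp1 nor the cleavage of ATF6 was measured.

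The promoters of many of these genes carry the ER stress element, the letters CCAAT and CCACG with 9 bases of any kind between them, to which ATF6 and the CCAAT-binding factor NF-Y are known to bind. Promoters (250 bases before to 50 after the start) came from RefSeq, build GRCm38.p6, and matched 31 of the 36 genes with 32 promoters. On either strand the full element was found in promoters of 9 of these genes and in 0.119% of all 32851 promoters. The copies are printed 5′ to 3′ on the strand that reads the element, with the fixed letters of the element in capitals. These letters are shared because the search asked for them, and the bases between and around them differ.
Hspa5, chr2:34772015-34772053 (plus strand): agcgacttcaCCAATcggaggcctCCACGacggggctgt
Hsp90b1, chr10:86705628-86705666 (minus strand): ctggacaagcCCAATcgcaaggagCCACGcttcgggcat
Hsp90b1, chr10:86705523-86705561 (plus strand): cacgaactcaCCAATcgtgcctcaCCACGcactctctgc
Calr, chr8:84847065-84847103 (plus strand): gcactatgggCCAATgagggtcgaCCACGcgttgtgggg
Canx, chr11:50325790-50325828 (minus strand): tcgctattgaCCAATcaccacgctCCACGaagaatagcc
Pdia6, chr12:17266481-17266519 (plus strand): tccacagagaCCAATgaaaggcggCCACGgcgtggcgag
Dnajc3, chr14:118937817-118937855 (plus strand): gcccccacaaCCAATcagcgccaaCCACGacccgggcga
Creld2, chr15:88819510-88819548 (minus strand): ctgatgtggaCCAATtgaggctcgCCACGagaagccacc
Syvn1, chr19:6046522-6046560 (plus strand): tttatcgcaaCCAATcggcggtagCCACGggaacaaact
Derl3, chr10:75893232-75893270 (minus strand): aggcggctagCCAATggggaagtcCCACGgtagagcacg

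The elements lay between 26 and 212 bases before the annotated starts. Hsp90b1, the ER member of the HSP90 family, had 2 copies. The whole 250 bases before the start of Hspa5, which encodes the master ER chaperone BiP, are printed because this promoter is the textbook example of the response, again with the exact element in capitals.
Hspa5, chr2:34771840-34772089 (plus strand): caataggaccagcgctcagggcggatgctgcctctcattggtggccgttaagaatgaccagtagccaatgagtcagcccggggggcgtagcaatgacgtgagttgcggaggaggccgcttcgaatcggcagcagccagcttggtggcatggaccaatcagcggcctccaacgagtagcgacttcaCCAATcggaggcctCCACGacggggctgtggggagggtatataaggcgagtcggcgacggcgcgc

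The related ER stress element II, ATTGG and CCACG with 1 base of any kind between them, was found in the promoters of Dnajb11 and Herpud1 and in 0.0365% of all promoters, and was added to the search after the data were seen. The amino acid response element TGATGNAAN, read by ATF4, was found in Chac1, Herpud1 and Trib3 and in 3.95% of all promoters. Herpud1, whose protein anchors the degradation complex in the ER membrane, held both, and its windows are shown with that of Chac1, a glutathione-degrading enzyme.
Herpud1, chr8:94386367-94386397 (plus strand): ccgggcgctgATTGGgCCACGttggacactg
Herpud1, chr8:94386306-94386334 (minus strand): gggtgcgggcTGATGcAAcccgccgtggt
Chac1, chr2:119351038-119351066 (minus strand): ctggcaggagTGATGcAAcggcagggaag

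The E-box CACGTG, which clock proteins bind, was found in Atf6b, Calr, Derl3, Dnajb9 and Ssr1 and in 7.15% of all promoters. The D-box TTANGTAA was found in Sec61b alone among these genes and in 2.32% of all promoters. The letters TGACGTGG were in none of the 32 promoters and in 0.676% of all. The letters CCACG alone, which lie inside both ER stress elements, was in 24 of the 31 genes and in 32.8% of all promoters. These are matches of letters and not measured binding.

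Levels were the deposited log2 values, on a scale where the lower quartile of an array lay between 3.67 and 3.91 and the median between 5.28 and 5.36. Differences are therefore in log2 units, and levels of different genes are not comparable, since each probe has its own brightness. Adipoq, the targeted gene, lay between 3.30 and 4.69 with a median of 3.62, and was above the array median in 0 of 22 arrays. It is not stated which part of the gene its probes read. All 6 hepatocyte markers (Alb, Apoa1, Ttr, Tat, Cps1 and Hnf4a) were above the median of every array, and their summed log2 value was between 107.06 and 109.56 in all arrays. Among the genes described here, Ppp1r15a was at or below the lower quartile in all 22 arrays and Chac1 in 3, so these 2 sit near background. In whole liver, fewer cells of a type and less RNA per cell cannot be told apart.

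Array ZT2b stood apart from the other ZT2 arrays. It was the highest of the 4 for 26 of the 34 genes, against 24.5% of all features, and ZT2d was the lowest for 21 of the 34, against 28.4% of all features. The deviation from the ZT2 mean, averaged over the 34 genes, was 0.58 in ZT2b and -0.48 in ZT2d. ZT2b also carried transcripts of bile duct and smooth muscle, chosen after their values were seen. Dmbt1 was 14.95 there and 3.46 to 8.12 elsewhere, Muc1 was 10.16 against 5.16 to 6.59, Acta2 was 10.54 against 5.13 to 7.67, and Krt19 was 6.12 against 3.20 to 4.31. The summed log2 value of the 5 measured cholangiocyte markers was 28.96 in ZT2b and 23.52 to 25.10 in the other ZT2 arrays, and 0 of the 5 were above the median in every array. The hepatocyte sum was 107.32 in ZT2b and 107.19 to 107.21 in the others. The part of these other cells in the values of ZT2b was not tested. The main counts below are therefore given with and without ZT2b, a choice made after seeing the data.

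A second split ran across times. In 5 arrays (ZT6b, ZT6c, ZT14b, ZT14d and ZT22a) Tff3, a secreted mucosal peptide, was 10.35 to 13.63, against 2.31 to 4.73 in the other 17. Chac1 was higher and Hsp90b1 and Herpud1 were lower in these arrays than in the others at each of the 3 times that hold both kinds. Over all features, 4.76% were higher and 3.64% lower by the same rule, so these counts are near the background.

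**Figure D1:**
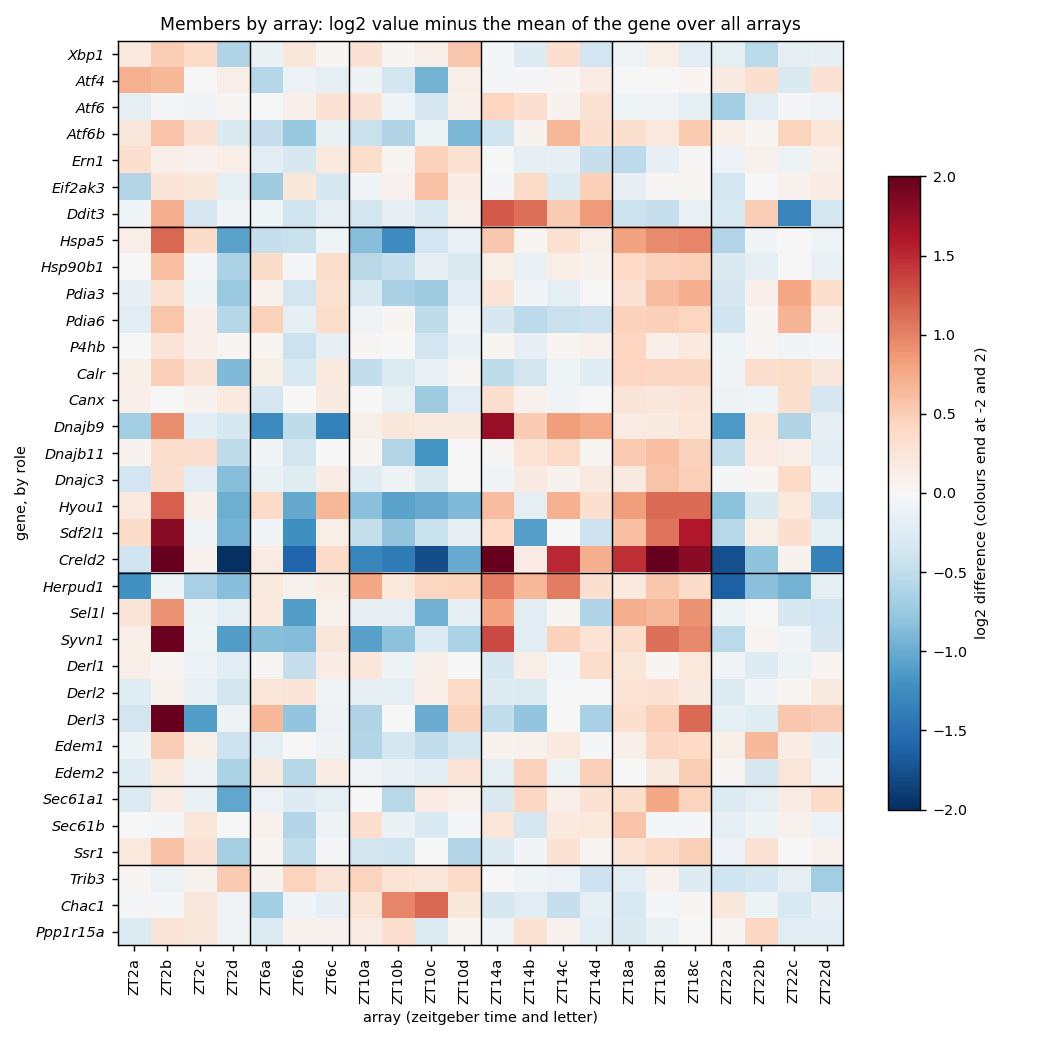
Each cell is the log2 value of a gene in one array minus the mean of that gene over all 22 arrays; rows are the 34 measured genes by role, columns the arrays by zeitgeber time and letter, and colours end at -2 and 2. The ZT18 columns are red for most chaperones and degradation genes, the ZT10 columns blue, and ZT2b and ZT2d run in opposite directions.

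The first question was which of the genes differ between times of day in any way. By the moderated F test of limma, with Benjamini-Hochberg adjustment over all features and a threshold of 0.05, 8 of the 34 did (Herpud1, Dnajb9, Hyou1, Ddit3, Chac1, Creld2, Hspa5 and Trib3). That is 23.5%, where 6.14% of all features and 11.2% of features above the median level were called. Without ZT2b the count was 10, with Hsp90b1 and Syvn1 added (5.71% of features), and without ZT2d it was 13 (6.12% of features). It was 5 without ZT10a, ZT18a or ZT18b and 4 without ZT10b or ZT18c. Without the 5 Tff3-high arrays, which leaves 1 array at ZT6, it was 5 (4.58% of features): Chac1, Creld2, Dnajb9, Herpud1 and Hyou1.

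The times at which the genes were highest were not spread evenly. The highest time mean was at ZT18 for 23 of the 34 genes, in the middle of the dark phase, against 16.2% of all features. The lowest was at ZT10, shortly before lights off, for 14 of the 34 against 15.4% of all features. By role, the ZT18 maximum was held by 12 of 13 chaperones and folding enzymes, 7 of 8 degradation genes and 3 of 3 translocation genes. It was held by 1 of 7 sensors and factors and by 0 of the 3 ATF4 and CHOP targets, all 3 of which were highest at ZT10. Of these 3, however, Ppp1r15a was at or below the lower quartile in all 22 arrays and Chac1 in 3. Leaving out ZT2b kept both counts (23 and 14), and leaving out the Tff3-high arrays gave 18 and 13. These counts describe the time means and carry no test. The summed log2 value of the 5 measured plasma and B cell markers, from cells rich in ER, was 17.81 to 19.20 at ZT18 and 17.02 to 20.17 at the other times. Of these 5 markers, 0 were above the median in every array, and Tnfrsf17 was at or below the lower quartile in all. This sum, here and below, is thus of low levels, and the part of such cells in the ZT18 counts was not tested.

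All 9 genes with the full ER stress element in the promoter were highest at ZT18, as were 11 of the 21 other measured genes with a matched promoter. The median difference ZT18 minus ZT14 was 0.64 in the former and 0.09 in the latter. The median difference of light minus dark was -0.19 and -0.14, and -0.40 and -0.17 without ZT2b. These too are descriptions with no test. Of the 9, Hspa5 and Creld2 were called as differing among times, and of the 21, 5 were, where 6.14% of all features were.

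Herpud1 had the clearest daily course. In the light the log2 values of Herpud1 were 15.33, 16.45, 15.89 and 15.69 at ZT2 (arrays a to d), 16.74, 16.63 and 16.69 at ZT6 and 17.31, 16.75, 16.97 and 16.99 at ZT10. In the dark they were 17.56, 17.21, 17.57 and 16.86 at ZT14, 16.74, 17.08 and 16.91 at ZT18 and 14.91, 15.70, 15.60 and 16.36 at ZT22. Every array from ZT6 to ZT18 was above every array at ZT2 and ZT22, and the 3 ZT6 arrays were at or below the lowest of those from ZT10 to ZT18. The mean climbed from 15.84 ± 0.47 (SD, n = 4) at ZT2 to 17.30 ± 0.34 (SD, n = 4) at ZT14 and was 15.64 ± 0.59 (SD, n = 4) at ZT22. The fitted 24 h amplitude was 0.82 ± 0.11 (SE), a 3.11-fold span from trough to peak, with the peak at ZT12.4 ± 0.6 h and an adjusted p of 3.42e-05 in limma. Herpud1 kept this call in all 32 alternatives run, its adjusted p ranging from 1.50e-05 to 0.0218.

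Dnajb9 encodes ERdj4, a co-chaperone of BiP and a target of spliced XBP1. During the light phase the log2 values of Dnajb9 were 12.94, 14.55, 13.39 and 13.29 at ZT2 (arrays a to d), 12.35, 13.11 and 12.26 at ZT6 and 13.74, 13.84, 13.81 and 13.80 at ZT10. Over the dark phase they were 15.36, 14.13, 14.45 and 14.36 at ZT14, 13.78, 13.79 and 13.86 at ZT18 and 12.47, 13.83, 13.01 and 13.46 at ZT22. The 3 ZT6 arrays were below every array of ZT10, ZT14 and ZT18, and the 4 ZT14 arrays were above every array of the other times but ZT2b. The means were 12.57 ± 0.47 (SD, n = 3) at ZT6 and 14.57 ± 0.54 (SD, n = 4) at ZT14. The 24 h amplitude was 0.66 ± 0.16 with a peak at ZT14.9 ± 0.9 h and an adjusted p of 0.0279 in limma. Without ZT2b that p was 0.000906, and the call was lost without ZT2a, ZT14a, ZT14c or ZT14d (0.0501 to 0.0717) and without the Tff3-high arrays (0.144), under the trended robust prior (0.0582) and on ranks (0.0827). The F test of any difference called it in every alternative, with an adjusted p of 0.0049 on all arrays.

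Hspa5, whose promoter is printed above, was highest at ZT18. Over the light times the log2 values of Hspa5 were 17.36, 18.37, 17.58 and 16.15 at ZT2 (arrays a to d), 16.76, 16.77 and 17.13 at ZT6 and 16.37, 15.96, 16.84 and 17.07 at ZT10. At the dark times they were 17.76, 17.27, 17.53 and 17.35 at ZT14, 18.03, 18.17 and 18.20 at ZT18 and 16.64, 17.17, 17.22 and 17.14 at ZT22. The ZT18 arrays were above all others except ZT2b, and the ZT10 arrays were below all ZT14 and ZT18 arrays. The means were 16.56 ± 0.49 (SD, n = 4) at ZT10 and 18.13 ± 0.09 (SD, n = 3) at ZT18. The adjusted p of any difference was 0.035 in limma, and it was over 0.05 without ZT6b, ZT10a, ZT10b or any 1 of the 3 ZT18 arrays (up to 0.0995), without the Tff3-high arrays (0.0847) and under a trended robust variance prior (0.0747). At ZT2 the 4 arrays ran from 16.15 in ZT2d to 18.37 in ZT2b, and without ZT2b the p was 0.0103.

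Hyou1 encodes a large HSP70-type chaperone that works with BiP. In the light the log2 values of Hyou1 were 13.99, 14.99, 13.90 and 12.82 at ZT2 (arrays a to d), 14.17, 12.77 and 14.46 at ZT6 and 12.95, 12.72, 12.79 and 12.91 at ZT10. Those of the dark phase were 14.41, 13.62, 14.50 and 14.11 at ZT14, 14.63, 14.92 and 14.92 at ZT18 and 12.97, 13.50, 14 and 13.38 at ZT22. The ZT10 arrays were low and close together and were below every ZT14 and ZT18 array, while ZT2 and ZT6 each held arrays from both ends of the range. The means were 12.84 ± 0.11 (SD, n = 4) at ZT10 and 14.82 ± 0.17 (SD, n = 3) at ZT18, and the adjusted p of any difference was 0.0168 in limma. The call was lost without ZT18b (0.0527) or ZT18c (0.0518), and without ZT2b the p was 0.00564.

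Creld2, a disulfide isomerase induced by ER stress, had the widest span of time means among the 34, at 3.18 log2 units (9.04-fold). During the light phase the log2 values of Creld2 were 9.44, 12.83, 9.93 and 7.47 at ZT2 (arrays a to d), 10, 8.25 and 10.23 at ZT6 and 8.53, 8.44, 8.06 and 8.84 at ZT10. In the dark they were 12.11, 10, 11.35 and 10.57 at ZT14, 11.30, 11.98 and 11.65 at ZT18 and 8.08, 9.04, 9.91 and 8.49 at ZT22. All ZT14 and ZT18 arrays were above all ZT10 and ZT22 arrays, but the ZT2 arrays alone spanned 7.47 to 12.83. The means were 8.47 ± 0.32 (SD, n = 4) at ZT10, 11.64 ± 0.34 (SD, n = 3) at ZT18 and 9.92 ± 2.21 (SD, n = 4) at ZT2. The adjusted p of any difference was 0.0295 in limma. It was 0.000917 without ZT2b and over 0.05 without ZT10a, ZT10b, ZT10c, ZT22d or any 1 of the ZT18 arrays (up to 0.0816). Under a trended robust variance prior it was 0.125.

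**Figure D2:**
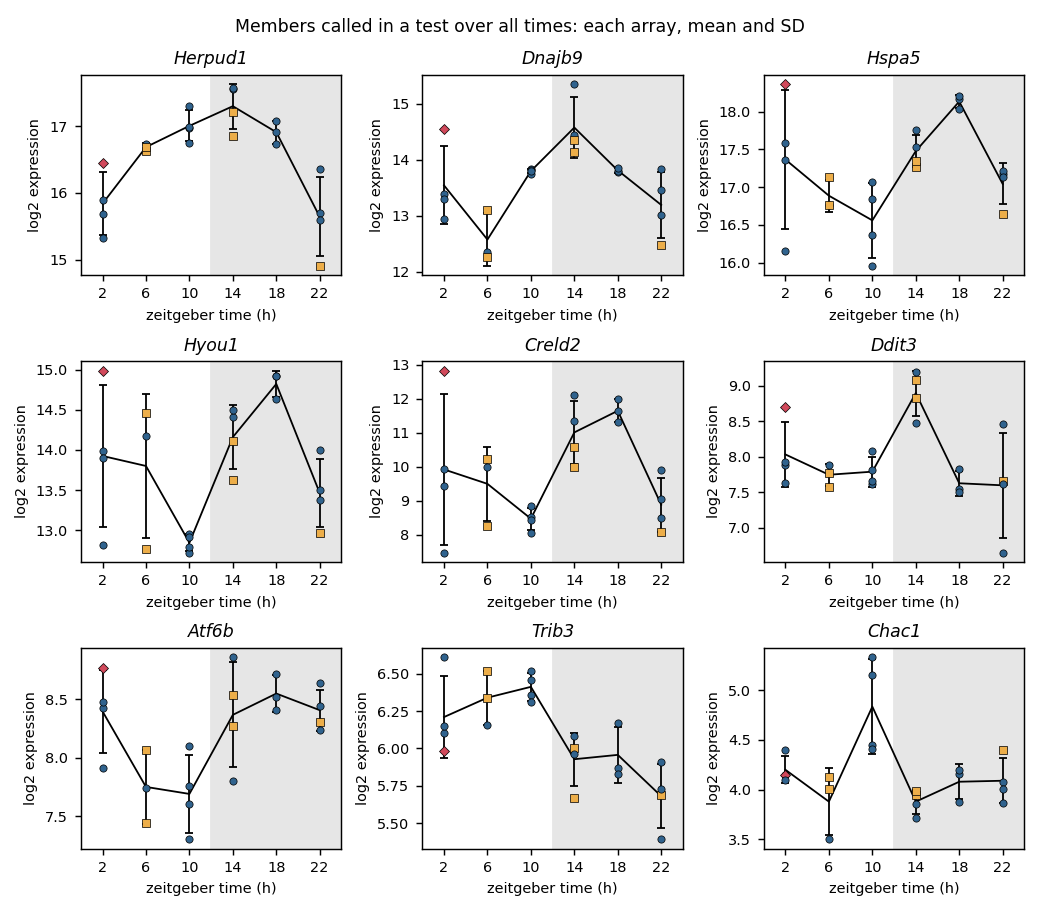
Log2 expression against zeitgeber time (h) for the 9 genes called in a test over all times or between light and dark; points are arrays, with ZT2b as a red diamond and the Tff3-high arrays as orange squares, lines join the means, bars are SD and the dark phase is grey. Herpud1 is high from ZT10 to ZT18, Hspa5, Hyou1 and Creld2 have their highest mean at ZT18 and a high point in ZT2b, Ddit3 stands out at ZT14 and Chac1 at ZT10.

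The other 9 chaperones and folding enzymes did not pass any of the tests on all arrays. All were highest at ZT18, with spans of their time means from 0.43 for P4hb to 1.56 for Sdf2l1. Hsp90b1 had means of 16.53 ± 0.18 (SD, n = 4) at ZT10 and 17.35 ± 0.04 (SD, n = 3) at ZT18 and passed the F test of any difference without ZT2b (0.0386) but not on all arrays (0.122, limma). Calr and Canx, the lectin chaperones of newly made glycoproteins, had means at ZT18 of 18.10 ± 0.01 (SD, n = 3) and 14.72 ± 0.02 (SD, n = 3). Their adjusted p was 0.25 and 0.44. Pdia3, Pdia6 and P4hb, which form and shuffle disulfide bonds, spanned 1.02, 0.88 and 0.43. Dnajb11 and Dnajc3, co-chaperones of BiP, spanned 0.96 and 0.69.

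Among the degradation genes, only Herpud1 passed a test on all arrays. Syvn1, the ubiquitin ligase HRD1, had means of 10.35 ± 0.34 (SD, n = 4) at ZT10, 11.86 ± 0.40 (SD, n = 3) at ZT18 and 11.28 ± 1.28 (SD, n = 4) at ZT2. Its adjusted p of any difference was 0.158 in limma and 0.0264 without ZT2b. Sel1l, its membrane partner, had means of 11.53 ± 0.39 (SD, n = 4) at ZT10 and 12.67 ± 0.12 (SD, n = 3) at ZT18, with an adjusted p of 0.156. Edem1 and Edem2, which pick out misfolded glycoproteins, spanned 0.74 and 0.42, and the channel proteins Derl1, Derl2 and Derl3 spanned 0.26, 0.42 and 1.12. Derl3 was 7.27 in ZT2b and 3.82 to 6.08 in all other arrays. The translocation genes Sec61a1, Sec61b and Ssr1 spanned 0.85, 0.38 and 0.72 and passed no test on all arrays.

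None of the 3 sensors passed a test. Ern1 encodes IRE1, and its log2 values in the light were 10.36, 10.16, 10.10 and 10.15 at ZT2 (arrays a to d), 9.79, 9.70 and 10.21 at ZT6 and 10.38, 10.08, 10.49 and 10.32 at ZT10. Over the dark phase they were 10.01, 9.84, 9.86 and 9.56 at ZT14, 9.50, 9.85 and 10.05 at ZT18 and 9.91, 10.11, 9.92 and 10.13 at ZT22. All ZT10 arrays were above all ZT14 and ZT18 arrays, yet the adjusted p of any difference was 0.195 in limma. Eif2ak3 encodes PERK, and its log2 values in the light were 8.47, 9.32, 9.28 and 8.86 at ZT2 (arrays a to d), 8.34, 9.29 and 8.73 at ZT6 and 9, 9.14, 9.65 and 9.20 at ZT10. At the dark times they were 9.02, 9.42, 8.80 and 9.54 at ZT14, 8.90, 9.08 and 9.08 at ZT18 and 8.70, 9.06, 9.15 and 9.21 at ZT22. The times overlapped throughout, with an adjusted p of 0.726. Atf6 is the sensor that is itself cut to a factor, and its log2 values in the light were 13.13, 13.28, 13.25 and 13.33 at ZT2 (arrays a to d), 13.31, 13.41 and 13.59 at ZT6 and 13.59, 13.21, 12.97 and 13.41 at ZT10. Those of the dark phase were 13.74, 13.64, 13.38 and 13.61 at ZT14, 13.22, 13.24 and 13.13 at ZT18 and 12.63, 13.10, 13.26 and 13.24 at ZT22. The 4 ZT14 arrays were above every array of ZT2, ZT18 and ZT22 and overlapped with those of ZT6 and ZT10. The time means of Atf6 spanned 0.54 log2 units, with an adjusted p of 0.293.

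Of the factors below the sensors, Xbp1 and Atf4 passed no test. Xbp1 is the factor of the IRE1 arm, and its log2 values in the light were 13.90, 14.20, 14.10 and 13.11 at ZT2 (arrays a to d), 13.58, 13.93 and 13.74 at ZT6 and 14, 13.76, 13.83 and 14.25 at ZT10. In the dark they were 13.68, 13.45, 14.04 and 13.33 at ZT14, 13.62, 13.85 and 13.50 at ZT18 and 13.51, 13.17, 13.53 and 13.55 at ZT22. Every ZT6 and ZT10 array was above every ZT22 array, and the other times overlapped with these. The time means lay between 13.44 at ZT22 and 13.96 at ZT10, with an adjusted p of any difference of 0.541 in limma. Atf4 is the factor of the PERK arm, and its log2 values in the light were 13.57, 13.52, 12.87 and 12.99 at ZT2 (arrays a to d), 12.30, 12.74 and 12.68 at ZT6 and 12.76, 12.49, 11.91 and 12.98 at ZT10. Over the dark phase they were 12.84, 12.82, 12.90 and 13.03 at ZT14, 12.86, 12.86 and 12.90 at ZT18 and 13.04, 13.19, 12.58 and 13.15 at ZT22. It was the one gene highest at ZT2, at 13.24 ± 0.36 (SD, n = 4) against 12.54 ± 0.46 (SD, n = 4) at ZT10, and its adjusted p was 0.204. The ZT2 arrays a and b were above all other arrays, and ZT2c and ZT2d lay within the range of the other times.

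Ddit3 encodes CHOP, a factor of the PERK arm tied to growth arrest and cell death. Over the light times the log2 values of Ddit3 were 7.88, 8.70, 7.63 and 7.92 at ZT2 (arrays a to d), 7.89, 7.58 and 7.77 at ZT6 and 7.61, 7.81, 7.66 and 8.08 at ZT10. At the dark times they were 9.20, 9.08, 8.48 and 8.83 at ZT14, 7.54, 7.51 and 7.83 at ZT18 and 7.66, 8.46, 6.65 and 7.62 at ZT22. The 4 ZT14 arrays were above every array of the other times except ZT2b, and the other time means lay between 7.60 and 8.03. The mean was 8.90 ± 0.32 (SD, n = 4) at ZT14 and 7.79 ± 0.21 (SD, n = 4) at ZT10. The step from ZT10 to ZT14 was 1.11 ± 0.27 (SE), or 2.15-fold, with an adjusted p of 0.0353 in limma. The step from ZT14 to ZT18 was -1.27 ± 0.30, or 2.41-fold lower, with an adjusted p of 0.048.

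The second feature of Ddit3 had means of 5.85 at ZT10, 6.77 at ZT14 and 6.10 at ZT18. It rose by 0.93 from ZT10 to ZT14 (adjusted p = 0.0119 in limma), and its difference of -0.67 from ZT14 to ZT18 did not pass the test (0.195). For the first feature, the rise lost its call without ZT10a, ZT10b, ZT10c, ZT14a, ZT14b or ZT14d (0.0775 to 0.115), without the Tff3-high arrays (0.247) and after quantile normalization (0.0584). The later fall kept its call on leaving out only 6 of the 22 arrays one at a time (ZT2b, ZT2c, ZT6a, ZT14c, ZT22b and ZT22c), and its adjusted p was up to 0.248 on leaving out the others.

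Atf6b, the paralog of Atf6, was lower in the light. In the light the log2 values of Atf6b were 8.43, 8.77, 8.48 and 7.91 at ZT2 (arrays a to d), 7.74, 7.44 and 8.07 at ZT6 and 7.76, 7.60, 8.10 and 7.30 at ZT10. Those of the dark phase were 7.80, 8.27, 8.86 and 8.54 at ZT14, 8.52, 8.41 and 8.72 at ZT18 and 8.31, 8.24, 8.64 and 8.44 at ZT22. The ZT6 and ZT10 arrays lay between 7.30 and 8.10, and of the other arrays only ZT2d and ZT14a were that low. The mean over the light times was 7.95 and over the dark times 8.44, a difference of -0.50 ± 0.14 or 1.41-fold (adjusted p = 0.0322 in limma). The 24 h amplitude was 0.43 ± 0.10 with a peak at ZT20.0 ± 0.9 h and an adjusted p of 0.0189. The 24 h call held on leaving out any 1 array but not on ranks (0.0793), whereas the light and dark call was lost without ZT2d, ZT6b, ZT10b, ZT10d, ZT14c, ZT14d, ZT18a, ZT18c, ZT22c or ZT22d (up to 0.0761), without the Tff3-high arrays (0.148) and with light and dark as plain groups (0.0991).

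The ATF4 and CHOP targets did not share the ZT18 maximum. Trib3, a pseudokinase that binds AKT and ATF4, was higher in the light. During the light phase the log2 values of Trib3 were 6.10, 5.98, 6.15 and 6.61 at ZT2 (arrays a to d), 6.16, 6.52 and 6.34 at ZT6 and 6.52, 6.36, 6.31 and 6.46 at ZT10. In the dark they were 6.08, 6, 5.96 and 5.67 at ZT14, 5.87, 6.17 and 5.83 at ZT18 and 5.69, 5.73, 5.91 and 5.39 at ZT22. The 4 ZT10 arrays were above every dark array, while the ZT2 arrays overlapped with those of ZT14 and ZT18. The difference of light minus dark was 0.47 ± 0.10, or 1.38-fold, with an adjusted p of 0.00752 in limma. The 24 h amplitude was 0.34 ± 0.08 with a peak at ZT7.5 ± 0.8 h and an adjusted p of 0.0148. Both calls held on leaving out any 1 array and were lost without the Tff3-high arrays (0.142 and 0.0803). The F test of any difference (0.0404) lost its call for 16 of the 22 arrays left out, with an adjusted p up to 0.107, and was lost without the Tff3-high arrays (0.172).

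Chac1 was high at ZT10 alone. Over the light times the log2 values of Chac1 were 4.15, 4.15, 4.40 and 4.10 at ZT2 (arrays a to d), 3.50, 4.13 and 4.01 at ZT6 and 4.45, 5.15, 5.33 and 4.41 at ZT10. Over the dark phase they were 3.86, 3.95, 3.72 and 3.99 at ZT14, 3.88, 4.16 and 4.2 at ZT18 and 4.40, 4.08, 3.87 and 4.01 at ZT22. Each ZT10 array was above every array of the other times, although ZT10a and ZT10d were within 0.05 of ZT2c and ZT22a. The mean was 3.88 ± 0.33 (SD, n = 3) at ZT6, 4.83 ± 0.47 (SD, n = 4) at ZT10 and 3.88 ± 0.12 (SD, n = 4) at ZT14. It rose by 0.95 ± 0.22 from ZT6 to ZT10 (adjusted p = 0.0362) and fell by 0.95 ± 0.20 from ZT10 to ZT14 (adjusted p = 0.0119, limma), 1.94-fold in both cases. These levels are near background, where folds are compressed. The fall lost its call without ZT10b (0.0573) or ZT10c (0.0635) and on the arrays of both times alone (0.0703). The rise lost its call without ZT10b, ZT10c or any 1 of the ZT6 arrays (up to 0.127) and with array weights (0.12). Without the Tff3-high arrays the fall and the rise had adjusted p of 0.0503 and 0.115. Ppp1r15a, which encodes GADD34, a subunit that reverses the PERK signal, had time means of 2.66 to 2.87, all near background.

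The 24 h rhythm was then tested with a cosine and a sine over all arrays. It called 4 of the 34 genes (Herpud1, Trib3, Atf6b and Dnajb9), or 11.8%, against 7.62% of all features and 13.6% of features above the median level, a share near the background. The fitted peaks of these 4 were ZT7.5 for Trib3, ZT12.4 for Herpud1, ZT14.9 for Dnajb9 and ZT20.0 for Atf6b, so they span both phases. The median amplitude over the 34 genes was 0.27 log2 units, against 0.16 over all features. Without ZT2b the count was 8 (7.33% of features), with Creld2 (0.0347), Edem1 (0.0413), Hspa5 (0.0324) and Syvn1 (0.0226) added. Edem1 had the lowest adjusted p among the genes not called on all arrays, 0.056 in limma.

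A 12 h component beside the 24 h terms was tested because ER stress genes of mouse liver are known for it, and sampling every 4 h gives few points per cycle. No gene of the 34 was called in limma, where 0.018% of all features were. At an unadjusted p under 0.05 there were 11 of the 34, against 7.56% of all features. The 11 were Hyou1, Ddit3, Creld2, Hsp90b1, Dnajb9, Hspa5, Pdia6, Chac1, Dnajb11, Syvn1 and Derl2. Hyou1 had the lowest p (0.000306, adjusted p = 0.193). Its amplitudes were 0.70 ± 0.15 for the 12 h and 0.49 ± 0.20 for the 24 h term. Its fitted 12 h peaks were at ZT4.4 and 12 h later. Those of Hspa5, Creld2, Dnajb11 and Hsp90b1 were at ZT4.2, ZT4.1, ZT4.3 and ZT5.1. The rest of the 11 were spread wider. Dnajb9, Ddit3 and Syvn1 had theirs at ZT1.3, ZT2.0 and ZT3.6, and Pdia6, Derl2 and Chac1 at ZT6.7, ZT6.9 and ZT10.2. Without ZT2b the count at an unadjusted p under 0.05 was 17 (7.41% of features), and 0 were called after adjustment. Without ZT2d, Hyou1 was called (adjusted p = 0.0471), where 0.0721% of features were.

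Light and dark were compared as the mean of the 3 light times minus the mean of the 3 dark times. Of the 34 genes, 1 was lower in the light (Atf6b, where 3.25% of features were lower) and 1 was higher (Trib3, where 2.02% were). Together they were 5.88% of the genes, against 5.27% of all features and 9.25% of features above the median level. Yet 28 of the 34 differences were below 0, with a median of -0.18, against a median of 0.013 over all features and -0.043 over features above the median level. Creld2 had the largest difference, -1.22 ± 0.42 (adjusted p = 0.0954), and Syvn1, Hyou1, Hspa5 and Dnajb9 followed with -0.67 ± 0.26, -0.63 ± 0.21, -0.61 ± 0.19 and -0.55 ± 0.19. None of these 5 passed the threshold on all arrays. Pdia3, at -0.47 ± 0.14, and Hspa5 were the nearest to it, with adjusted p of 0.0512 and 0.0544 in limma.

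Leaving out one array at a time, this count ran from 1 to 11, where 825 to 1427 of all features were called. Without ZT2b, 10 genes were called lower in the light (3.35% of features were) and 1 higher (1.90%). The 10 were Creld2 (-1.54 ± 0.31, adjusted p = 0.00397 in limma), Hspa5 (-0.73 ± 0.16, 0.00941), Syvn1, Dnajc3, Dnajb9, Atf6b, Hyou1, Edem1, Pdia3 and Sec61a1 (-0.48 ± 0.14, 0.0407). These include chaperones, a disulfide isomerase, degradation genes and the translocation pore. With ZT2d left out in place of ZT2b, only Trib3 was called (4.69% of features). The count was 5 without ZT22a, 4 without ZT6c, and 1 without ZT6b, ZT10b, ZT14c, ZT14d, ZT18a, ZT18c or ZT22c. Without the Tff3-high arrays, Dnajb9 alone was called (2.78% of features).

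**Figure D3:**
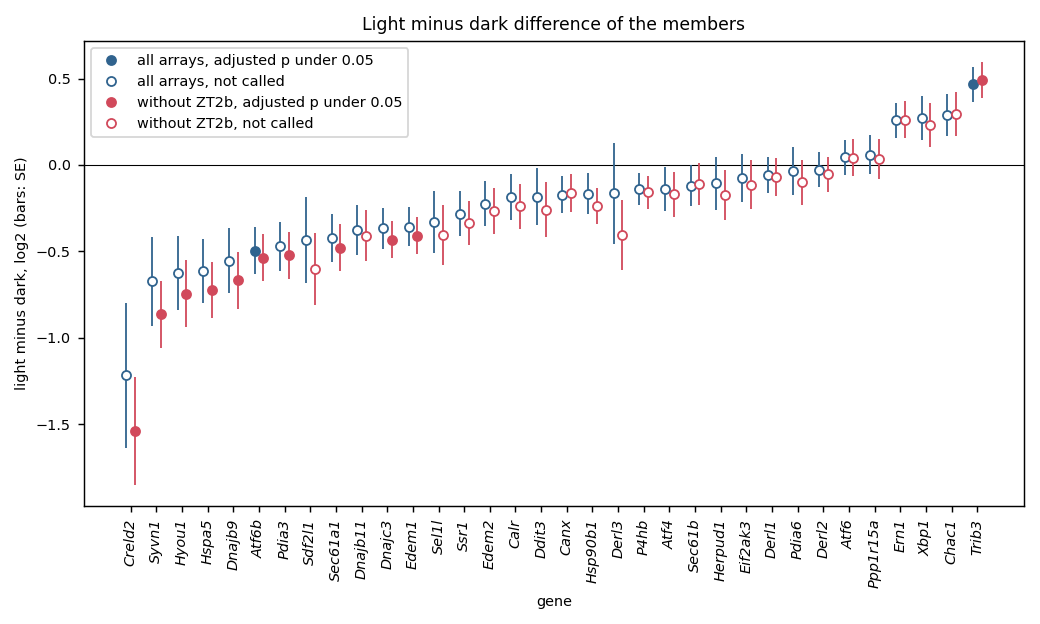
Mean of the light times minus mean of the dark times in log2 units for each of the 34 genes, with bars of 1 SE, on all arrays (blue) and without ZT2b (red); filled points have an adjusted p under 0.05 in limma. On all arrays Atf6b and Trib3 are filled, and without ZT2b 11 genes are, 10 of them below 0.

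Across lights off, from ZT10 to ZT14, when mice begin to feed, Ddit3 rose and Chac1 fell as given above. These are 2 of the 34, against 1.72% of all features and 3.13% of features above the median level. Another 12 had an unadjusted p under 0.05, making 14 of the 34 where 13.3% of features did. The largest of them were Creld2, 2.54 ± 0.69 (adjusted p = 0.0578 in limma), and Hyou1, 1.32 ± 0.35 (0.0524). Both were called without ZT2b, which made 4 (1.72% of features), and with Hspa5 without ZT2d, which made 5 (2.06% of features). The count was 1 without ZT10a, ZT14b or ZT14d and 0 without ZT10b or ZT10c. Without the Tff3-high arrays it was 1, Hyou1 (0.703% of features). Marker sums of some other cells did not overlap between these times: those of 5 cholangiocyte markers were 22.58 to 24.81 at ZT10 and 25.37 to 26.13 at ZT14, and those of 5 adipocyte markers, Adipoq among them, 22.62 to 24.35 and 25.09 to 27.36. Their part in the steps was not tested. The hepatocyte sums overlapped, at 107.06 to 108.53 and 108.19 to 109.56, as did those of the 5 measured plasma and B cell markers, at 18.44 to 19.08 and 17.02 to 19.84.

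The 4 steps that follow were added after the data were seen. From ZT14 to ZT18 the difference was above 0 for 26 of the 34 genes, with a median of 0.23 against 0.0083 over all features. Only the fall of Ddit3 was called (0.545% of features), with 10 of the 34 at an unadjusted p under 0.05 (10% of features). Without ZT2b it was again the only call (0.527% of features). Between these times the summed sinusoidal endothelial markers were 48.48 to 50.60 and 50.66 to 53.14, and the cholangiocyte markers 25.37 to 26.13 and 23.68 to 24.69, neither overlapping, and their part in the steps was not tested. The largest step upwards was that of Sdf2l1, a partner of BiP complexes, at 1.38 ± 0.45 (0.211 in limma). From ZT18 to ZT22 the difference was below 0 for 29 of the 34, with a median of -0.29 against -0.0075 over all features, and none was called (0.0811% of features were), with 9 at an unadjusted p under 0.05 (5.14% of features). The lowest adjusted p was that of Herpud1, -1.27 ± 0.27 (0.0785), and without ZT2b both Herpud1 and Creld2 were called (0.0991% of features).

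Across lights on, from ZT22 to ZT2, none of the 34 genes was called in limma (0.131% of features were), and 1 had an unadjusted p under 0.05, Trib3 (9.99% of features). The median difference was 0.14. Without ZT2b it was -0.0092 and again none was called (0.0991% of features). Between ZT22 and ZT2 the summed hepatocyte markers were 108.30 to 109.09 and 107.19 to 107.32. The sinusoidal endothelial markers were 52.03 to 53.39 and 50.88 to 51.92. Neither overlapped, and their part in the step was not tested. From ZT2 to ZT6 none was called (0.392% of features), with 4 at an unadjusted p under 0.05 (10.3% of features), and none without ZT2b (0.176% of features). The hepatocyte sums were 107.19 to 107.32 at ZT2 and 107.35 to 108.85 at ZT6, again not overlapping. Their part in this step was not tested either. From ZT6 to ZT10 the 1 call was that of Chac1 (0.639% of features), and without ZT2b Dnajb9 was also called (0.644% of features). The summed plasma and B cell markers were 19.22 to 20.17 at ZT6 and 18.44 to 19.08 at ZT10, and their part in this step was not tested.

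The spread between mice at one time differed from time to time. The median SD of the 34 genes was 0.45 at ZT2 and between 0.16, at ZT18, and 0.27 at the other times, where the median over all features was 0.29 at ZT2 and 0.20 at ZT18. The SD at ZT2 was over 1 for Creld2 (2.21), Derl3 (1.49), Syvn1 (1.28) and Sdf2l1 (1.15), and at the other times only for Creld2 at ZT6 (1.08). Without ZT2b the median SD at ZT2 was 0.32. Of the clock genes, Arntl was 10.05 in ZT2b, within the 10.01 to 10.77 of the other ZT2 arrays. Nr1d1 was 9.86 against 9.92 to 10.60, just below them, and Dbp was 8.43 against 6.72 to 7.56, above them. Of 95 other measured genes of the same pathways, ZT2b was the highest ZT2 array for 46 and ZT2d the lowest for 62.

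**Figure D4:**
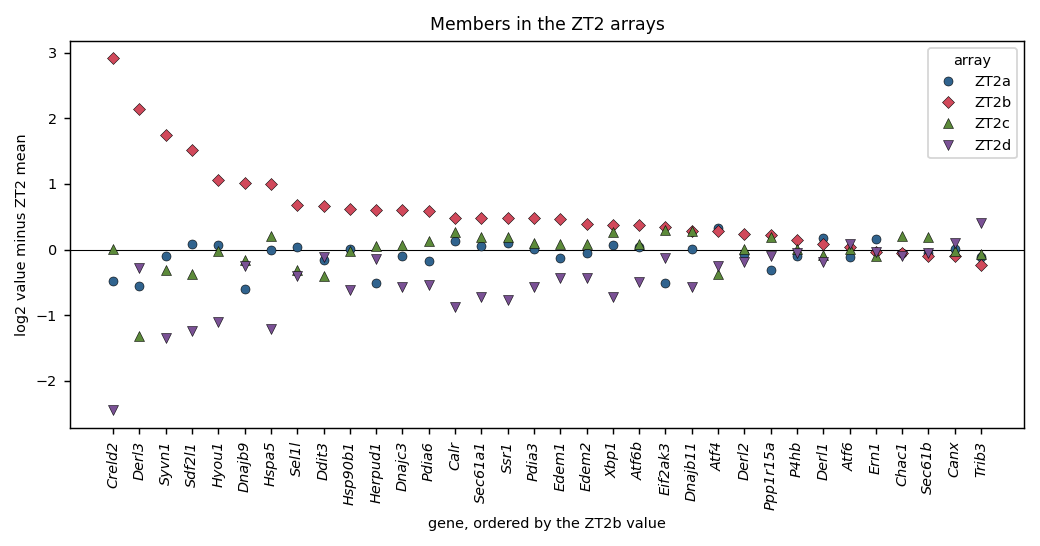
Log2 value of each of the 34 genes in each of the 4 ZT2 arrays minus their ZT2 mean, ordered by the value in ZT2b. ZT2b is the highest array for 26 genes and ZT2d the lowest for 21, with Creld2, Derl3, Syvn1 and Sdf2l1 spread the widest.

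A wider list of 95 measured genes of the same pathways, none of them among the 34, was taken through the same tests. It too was chosen with earlier results of these data known. The 24 h test called 10 (10.5%, against 7.62% of all features) and the F test of any difference 12 (6.14% of features). In the dark, 13 were higher and in the light none, where 3.25% of features were lower in the light and 2.02% higher. From ZT10 to ZT14, 5 rose and none fell, where 0.964% and 0.752% of features did, and across lights on none was called (0.131% of features). Without ZT2b the 24 h test called 14 (7.33% of features) and the F test of any difference 15 (5.71% of features). Then 16 were higher in the dark and none in the light, where 3.35% of features were lower in the light and 1.90% higher. Again 5 rose and none fell from ZT10 to ZT14, where 0.982% and 0.743% of features did. Of the 10 rhythmic genes, 4 belong to folding and oxidation (Ero1a, Fkbp11, Fkbp14 and Uggt1), 3 to translocation and export (Srprb, Serp1 and Kdelr2), 2 to signalling (Atf5 and Ppp1r15b) and 1 to the targets of the eIF2 alpha kinases (Slc3a2).

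Fkbp14, a prolyl isomerase of the ER, and Ero1a, the oxidase that feeds disulfide bonds to the isomerases, had amplitudes of 0.67 ± 0.09 and 0.55 ± 0.08, with peaks at ZT18.3 and ZT15.7 and adjusted p of 4.64e-05 and 5.47e-05 in limma. Atf5, a factor related to ATF4, had the largest amplitude, 0.81 ± 0.15, and was the one gene of the 10 with a peak near lights on, ZT2.1. The peaks of the other 7 lay between ZT12.2 for Fkbp11 and ZT18.1 for Slc3a2.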

How the data were processed

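RNA of 22 livers was hybridised to Clariom S mouse arrays. The deposited table holds 1 log2 expression value per feature and array, with nearly equal medians and quartiles over the arrays. Per the values themselves the scale is a logarithm, taken here as base 2. For the software, background correction, normalization and genome build, the sources used here give nothing. Genes were named through the platform's annotation.

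All 22206 features were fitted with limma 3.58.1 (lmFit and eBayes) in R 4.3.3, with Benjamini-Hochberg adjustment over all features and a threshold of 0.05. The times were compared by a 24 h cosine and sine, a 12 h pair beside it, an F test over the 6 times, and differences of time means. For a gene with several features, the brightest on average was used. No detection calls were used, and the number of arrays limits the precision. The fits were tested on simulated data. The genes, marker lists and wider gene list were chosen with earlier results of these data known. Genes that passed a test, the 3 sensors, Xbp1, Atf4, Ddit3 and Hspa5 are given array by array, and the others by ranges. Alternatives covered normalization, centring, dim features, the variance prior, array weights, replicate letters, ranks, models and left-out arrays.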

Additional observations from a re-analysis of the deposited data

Results flagged for a closer look

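In 136 groups of 4 arrays, each gene at each time with 4 arrays was searched for an array far from the other 3 by Dixon's criterion, which chance meets in about 1 of 20 groups, or 6.8 of 136. It was met 5 times. Xbp1 was 13.17 in ZT22b and 13.51 to 13.55 in the other ZT22 arrays. Hspa5 was 16.64 in ZT22a, a Tff3-high array, and 17.14 to 17.22 in the others. Sel1l was 10.95 in ZT10c and 11.71 to 11.75 in the others. Sec61b was 7.69 in ZT14b, also Tff3-high, and 8.22 to 8.27 in the others. Chac1 was 4.40 in ZT2c and 4.10 to 4.15 in the others.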

How the results depend on the processing

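Counts are of the 34 genes called in limma, where all arrays gave 4 for the 24 h rhythm, 0 for the 12 h component, 8 for any difference, 2 for light minus dark, 2 for ZT10 to ZT14, 0 for ZT22 to ZT2, 0 for ZT2 to ZT6, 1 for ZT6 to ZT10, 1 for ZT14 to ZT18 and 0 for ZT18 to ZT22. No direction of a called gene turned under any alternative run. Leaving out 1 array at a time gave 3 to 8, 0 to 1, 4 to 13, 1 to 11, 0 to 5, 0 to 0, 0 to 0, 0 to 2, 0 to 1 and 0 to 2, in the same order. Of all 22206 features, all arrays called 1691, 4, 1363, 1170, 381, 29, 87, 142, 121 and 18. With 1 array left out these ran from 1464 to 1691, 2 to 16, 1078 to 1579, 825 to 1427 and 188 to 469. For the remaining steps they ran from 15 to 44, 29 to 117, 62 to 315, 24 to 219 and 7 to 30. Centring on array medians left all 10 counts as they were, and quantile normalization moved only ZT14 to ZT18, to 0 (100 features). With only features above the median level, which left 31 of the 34 genes and not Chac1, the 24 h count was 7, light minus dark 7, ZT6 to ZT10 0 and ZT18 to ZT22 1. In each of these comparisons a larger share of all tested features was called as well. The higher counts alone therefore do not show a gain of these genes over the background. The trended robust prior gave 6 for light minus dark and 1 for ZT18 to ZT22, and its 8 for any difference did not include Creld2, Hspa5 and Trib3. Array weights gave 8 for the 24 h rhythm, 1 for the 12 h component, 14 for any difference, 5 for light minus dark, 5 for ZT10 to ZT14, 0 for ZT6 to ZT10, 3 for ZT14 to ZT18 and 3 for ZT18 to ZT22. With these weights more of all features were called too in each of these comparisons except ZT6 to ZT10, where fewer were. A higher count under array weights is thus not particular to these genes. Ranks gave 2 for the 24 h rhythm (1065 features), and plain light and dark groups gave 1 (700). Without the Tff3-high arrays (fewer samples) the counts were 5 for any difference, 1 for light minus dark, 1 for ZT10 to ZT14, 0 for ZT6 to ZT10 and 0 for ZT14 to ZT18. Without ZT2b and ZT2d they were 7 for the 24 h rhythm, 1 for the 12 h component (Creld2), 6 for light minus dark, 6 for ZT10 to ZT14 and 1 for ZT18 to ZT22. These alternatives were chosen after seeing the data, and the cause of the other shifts was not tested. With the replicate letter as a block the counts were 5, 0, 6, 3, 2, 0, 0, 1, 0 and 0, so that ZT14 to ZT18 went to 0, and Creld2 (0.0506), Hspa5 (0.0635) and Trib3 (0.0814) lost the call of any difference. Over 51 same-letter pairs the correlation of deviations from the time means ran from -0.236 to 0.226. The median was 0.0028, and 3 were over 0.1. Pairs of different letters were not set beside these, so whether the letters pair the arrays was not tested. Levels at or below the lower quartile, as for Ppp1r15a in all 22 arrays and Chac1 in 3, cannot be told from background.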
